A study of Mus musculus with 9 samples.

Results

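A set of 10 genes of the NRF2 antioxidant response and of glutathione and thioredoxin chemistry were followed in mouse large intestine in which the helicase gene Dhx9 had been knocked down. The set holds the stress-sensing pair Nfe2l2 and Keap1, the glutathione synthesis genes Gclm and Gclc, the glutathione reductase gene Gsr, the NADPH-supplying gene G6pdx, the thioredoxin system genes Txnrd1 and Srxn1, and the detoxification genes Nqo1 and Hmox1. These 10 genes were chosen by name, from the symbol that each array row's Entrez Gene number maps to, out of 24570 named genes. All 10 had a row, and all 10 passed the filter on low levels described with the processing (a mean log2 level of at least 5.29).

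Total RNA of whole large intestine was hybridised to 9 Affymetrix Mouse Gene 2.0 ST arrays, which carry short probes spread along each gene. The mice were on a C57BL/6 background and carried rtTA, the activator that works in the presence of doxycycline, with a hairpin RNA under its control. In the control group the hairpin, FLuc.1309, was directed against firefly luciferase, which mice lack. In the other groups it was directed against Dhx9 and is named DHX9-1271 or DHX9-837 after the hairpin. Each of the 3 groups held 3 arrays. Control mice and knockdown mice alike drank doxycycline at 1 mg/ml with 5% sucrose for 14 days from 4 weeks of age, with the water changed every 4 days, so every value below is from doxycycline-treated animals. The labels give neither the promoter that drives rtTA nor the cells in which the hairpin is active. Each hairpin, that of the control group included, is a line of its own. A difference between hairpins, or between a hairpin group and control, is therefore also one between lines. The labels do not say that replicates came from separate animals, and p-values then measure only the spread between these samples, which may be technical. Precision is limited by having 3 arrays in a group.

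NRF2, the product of Nfe2l2, is a transcription factor that cells hold at a low level by constant destruction. KEAP1 binds NRF2 and brings it to a ubiquitin ligase; oxidants and reactive chemicals modify cysteines of KEAP1, after which NRF2 escapes, pairs with small MAF proteins and switches on genes that carry an antioxidant response element. Those genes make glutathione, reduce it again with NADPH, run the thioredoxin system, and disarm quinones and heme, and the lining of the gut uses them against food chemicals, bacterial products and the oxidants of inflammation. Because NRF2 is controlled mainly as a protein, the RNA of its target genes is commonly read as a sign of its activity; protein and enzyme activity were not measured here.

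NRF2 acts on target genes through the antioxidant response element, so stretches of member promoters that hold its core before the transcript start are shown. Promoter windows were taken from RefSeq (build GRCm38.p6) and run from 250 bases before to 50 bases after the transcript start. The core searched was TGACNNNGC, on both strands. Of the 10 genes, 7 had a window (Nfe2l2, Keap1, Nqo1, Gclm, Txnrd1, Srxn1 and G6pdx), and 5 of these held the core in at least 1 window: Nfe2l2, Gclm, Txnrd1 (in 1 of its 3 windows), Srxn1 and G6pdx. Counted by window, the core was in 5 of the 9 windows of these genes and in 12.4% of all 32851 windows of that length; counted by gene, it was in 14% of all genes with a window. In Srxn1 the core lies on the opposite strand after the transcript start, from base 29, and is not printed. The stretches for the other 4 follow in the direction of the gene, with the core in capitals. In Nfe2l2 it reads as searched, 240 bases before the start, and in the other 3 the element lies on the opposite strand and the capitals show its reverse complement, 134 bases before the start in Gclm, 92 in Txnrd1 and 57 in G6pdx.
Nfe2l2, chr2:75704870-75704913, minus strand: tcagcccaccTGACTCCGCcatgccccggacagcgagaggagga
Gclm, chr3:122245398-122245456, plus strand: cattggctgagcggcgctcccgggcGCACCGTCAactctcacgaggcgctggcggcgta
Txnrd1, chr10:82859089-82859147, plus strand: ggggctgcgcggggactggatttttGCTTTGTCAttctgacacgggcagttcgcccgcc
G6pdx, chrX:74428904-74428962, minus strand: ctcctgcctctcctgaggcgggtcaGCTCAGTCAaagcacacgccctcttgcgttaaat
A match of these letters is a description of the sequence and not a measured site of binding. The windows of Nqo1 and Keap1 did not contain these letters, and Hmox1, Gclc and Gsr are named only.

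Dhx9, the targeted gene, was at 49.6% of control in DHX9-1271 and 48.8% in DHX9-837, and its 6 knockdown arrays (8.18 to 8.27) all lay below the 3 control arrays (9.18 to 9.32). Array medians lay between 6.24 and 6.28, and the across-gene correlation between arrays of the same group was between 0.979 and 0.995. Tests are limma's moderated test with Benjamini-Hochberg adjustment over 17199 genes, and a gene is called at an adjusted p under 0.05. By this rule 4.47% of tested genes were called in DHX9-1271 against control, 15.8% in DHX9-837 against control, 13.6% in the mean of both hairpins against control, and 1.91% between the hairpins. The split of calls depended on scaling: 1410 genes were called higher and 934 lower in both hairpins, and 1153 and 1245 after median centring of the arrays; in DHX9-1271 the split was 493 and 275, and 401 and 365 when centred, and in DHX9-837 it was 1512 and 1209, and 1325 and 1543 when centred. As a check of the tissue, the mean log2 level of 12 colon epithelial markers lay between 11.3 and 11.4 on every array, though single markers moved both ways: in both hairpins together Krt18 (0.66) and Krt19 (0.24; lost without control replicate 1, adjusted p = 0.0552) were called higher and Slc26a3 (-0.45) lower. The mean log2 level of 13 macrophage markers ran from 7.37 to 7.40 in control, 7.46 to 7.57 in DHX9-1271 and 7.59 to 7.64 in DHX9-837. In both hairpins against control 5 of the 13 were called higher (Cd68, Csf1r, Mrc1, C1qb and C1qc) and 0 lower. In DHX9-837 against control 5 were called higher and 1 lower, with differences from -0.405 to 0.584. The mean of 10 B and plasma cell markers ran, in the same order of groups, from 7.01 to 7.10, 7.18 to 7.70 and 7.31 to 7.63 (5 of 10 called higher in both hairpins). That of 8 fibroblast markers ran from 8.90 to 9.16, 9.26 to 9.35 and 9.21 to 9.34 (4 of 8 called higher: Dcn, Fbln1, Pdgfra and Postn). The mean of 8 smooth muscle markers ran from 10.5 to 10.7 in control, 10.6 to 10.7 in DHX9-1271 and 10.3 to 10.5 in DHX9-837. None of the 8 was called by limma in any comparison, but between the hairpins all 8 were lower in DHX9-837 (median -0.22), 5 of them at an unadjusted p under 0.05.

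Of the 10 genes, Gsr alone was called: it was higher in DHX9-837 than in control and in both hairpins together than in control. This is 1 of 10 called higher and 0 lower in both hairpins together, where 8.2% of all tested genes were called higher and 5.43% lower. In DHX9-837 it is also 1 of 10 higher and 0 lower, beside 8.79% of all genes called higher and 7.03% lower. In DHX9-1271 and between the hairpins none of the 10 was called by limma, beside 4.47% and 1.91% of all genes; at an unadjusted p under 0.05 the count was 2 of 10 in DHX9-1271 and 2 of 10 between the hairpins, beside 20.6% and 14.4% of all tested genes. The median difference of the 10 genes was -0.0142 for both hairpins, -0.0124 for DHX9-1271 and 0.0555 for DHX9-837, beside medians of 0.0013, 0.0061 and -0.0012 over all tested genes. The DHX9-1271, DHX9-837 and pooled comparisons share the same 3 control arrays, so they are not independent of each other.

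**Figure D1:**
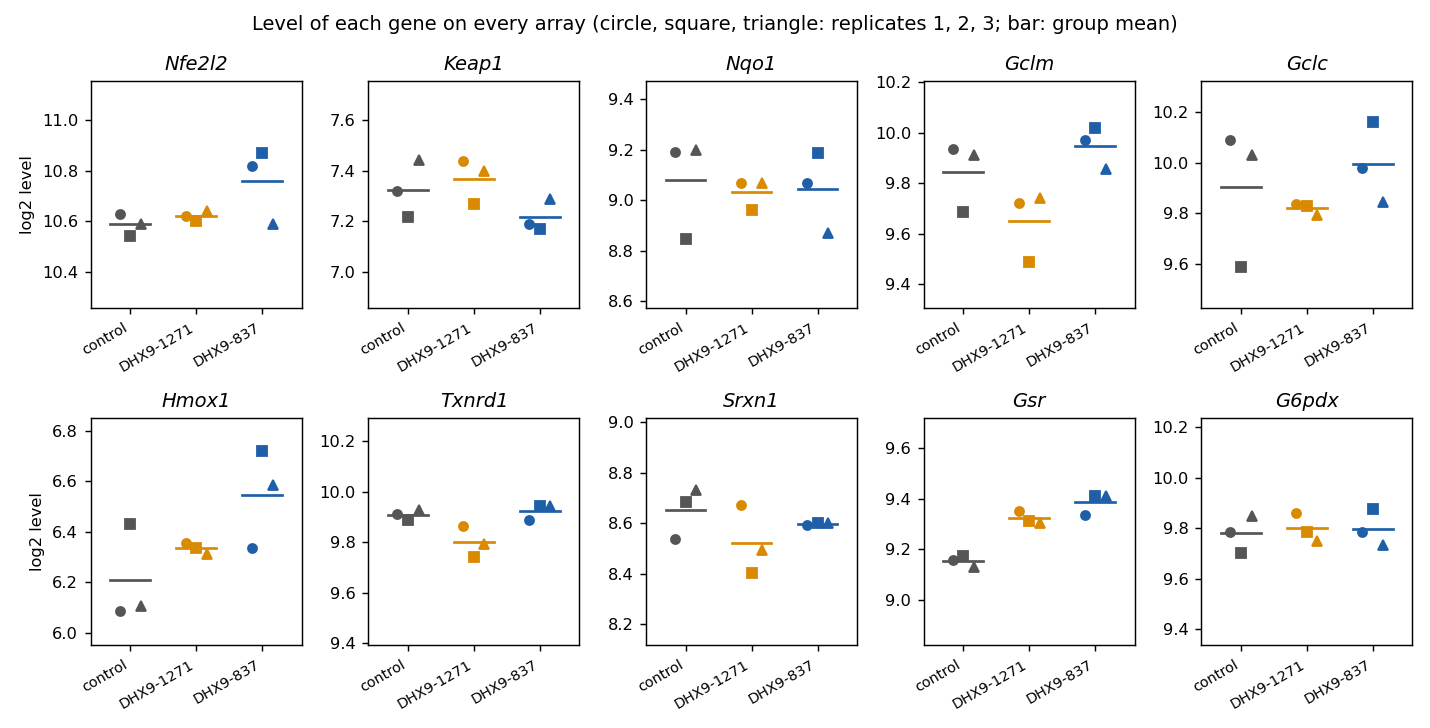
Log2 level (vertical axes, 1 panel for each of the 10 genes) on every array, by group on the horizontal axis, with 1 dot for each array and 3 arrays in each group. The Gsr panel has all 6 knockdown arrays (9.30 to 9.41) above the 3 control arrays (9.13 to 9.18). In the panels of Nqo1, Gclc and Keap1 each hairpin group overlaps control.

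Gsr encodes glutathione reductase, the enzyme that returns oxidised glutathione to its reduced form at the cost of NADPH. Its log2 level was 9.16, 9.18 and 9.13 on control replicates 1 to 3 (mean 9.15 ± 0.022, SD, n = 3). It was 9.35, 9.31 and 9.30 in DHX9-1271 (9.32 ± 0.026) and 9.34, 9.41 and 9.41 in DHX9-837 (9.39 ± 0.043), and the DHX9-837 arrays lay above control as they did for 17.2% of tested genes. Every knockdown array lay above every control array, as was so for 10.8% of tested genes, and the hairpin groups overlapped each other. Against control, Gsr rose by 0.23 in DHX9-837 (SE 0.043, 95% interval 0.133 to 0.33, adjusted p = 0.00827 by limma). In both hairpins together it rose by 0.20 (SE 0.037, interval 0.115 to 0.285, adjusted p = 0.00977), a 1.15-fold difference. The DHX9-1271 difference of 0.17 (interval 0.0698 to 0.266) had an adjusted p of 0.0682 and was not called, though its 3 arrays lay above control without overlap, as they did for 15.4% of tested genes. The hairpins differed by 0.063 (interval -0.0348 to 0.162, adjusted p = 0.58). Permuting the 9 arrays exactly gave Gsr a two-sided p of 0.0119 for both hairpins together, the smallest p that 84 arrangements of 3 against 6 can give, and with 3 against 3 arrays no exact p can fall below 0.1. Of the 10 genes, Gsr was the only one with an exact permutation p under 0.05 in that comparison.

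The Gsr difference was small, and so was its spread. Its pooled SD within groups was 0.0317, which is smaller than that of all but 3.34% of tested genes, while the median over tested genes was 0.0909. In the 19 alternatives run for both hairpins together its difference stayed between 0.172 and 0.212, with adjusted p between 0.00265 and 0.0345. Whole tissue was measured, so more RNA per cell and more cells of a type that carries Gsr cannot be told apart. The macrophage, B cell and fibroblast marker means given above were also higher in knockdown arrays, and their part in the Gsr result was not tested. Genes of like profile were sought after some tested genes were set aside by name. These were predicted, clone and all-capital names, small RNAs, antigen and odorant receptors, and symbols beginning with Rn. Among the genes left, Sec24d, Sdr39u1 and Ss18 had the profiles over the 9 arrays nearest to that of Gsr. The root mean square difference was 0.0246, 0.0283 and 0.029 between profiles centred on their own means. For both hairpins together the differences of these genes were 0.17, 0.17 and 0.22. They lie near that of Gsr because the genes were picked for a like profile on the same arrays.

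Nfe2l2, the gene for NRF2 itself, read 10.63, 10.54 and 10.59 in control, 10.62, 10.60 and 10.64 in DHX9-1271, and 10.82, 10.87 and 10.59 in DHX9-837. Replicates 1 and 2 of DHX9-837 lay above every other array, and replicate 3 lay within the control range. The difference from control was 0.17 in DHX9-837 (95% interval 0.0096 to 0.337, adjusted p = 0.143) and 0.035 in DHX9-1271 (adjusted p = 0.827). Neither was called. Without DHX9-837 replicate 3 the DHX9-837 difference was 0.26 with an adjusted p of 0.018, so that array decided the call. Keap1, the gene for the protein that holds NRF2 down, read 7.32, 7.22 and 7.44 in control, 7.44, 7.27 and 7.40 in DHX9-1271, and 7.19, 7.17 and 7.29 in DHX9-837. Its groups overlapped, with differences from control of 0.043 in DHX9-1271 (adjusted p = 0.779) and -0.11 in DHX9-837 (interval -0.274 to 0.0535, adjusted p = 0.35). The hairpins differed by -0.15 (interval -0.317 to 0.01, adjusted p = 0.383).

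Gclm and Gclc encode the modifier and the catalytic subunit of glutamate-cysteine ligase, the enzyme of the limiting step in glutathione synthesis. Gclm read 9.94, 9.69 and 9.91 in control, 9.72, 9.49 and 9.74 in DHX9-1271, and 9.97, 10.02 and 9.85 in DHX9-837. The 3 arrays of DHX9-837 lay above the 3 of DHX9-1271, as they did for 3 of the 10 genes (Gclm, Gclc and Txnrd1) and for 9.41% of all tested genes. Control lay across both groups. The hairpins differed by 0.30 (SE 0.091, interval 0.0921 to 0.507, unadjusted p = 0.00984 by limma), which had an adjusted p of 0.158 and was not called. Against control, Gclm differed by -0.19 in DHX9-1271 (interval -0.402 to 0.0125, adjusted p = 0.269) and by 0.10 in DHX9-837 (adjusted p = 0.493). With the hairpins on either side of control, their mean difference was -0.045 (adjusted p = 0.746).

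Gclc read 10.09, 9.59 and 10.03 in control, 9.84, 9.83 and 9.79 in DHX9-1271, and 9.98, 10.16 and 9.85 in DHX9-837. Control replicate 2 was the lowest of the 9 arrays and the other control arrays were among the highest, so control covered nearly the whole range. Differences from control were -0.082 (adjusted p = 0.764) and 0.092 (adjusted p = 0.683), and that of both hairpins was 0.0050 (interval -0.248 to 0.258, adjusted p = 0.985). Leaving out control replicate 2 took the difference of both hairpins to -0.15, the lowest value in the alternatives. The 2 subunit genes were also compared within each array, where array scaling drops out. Gclm minus Gclc changed by -0.11 in DHX9-1271 (exact permutation p = 0.5), by 0.012 in DHX9-837 (exact p = 0.9) and by -0.050 in both hairpins (exact two-sided p = 0.607), less than the spread between arrays.

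G6pdx encodes glucose-6-phosphate dehydrogenase, which makes the NADPH that glutathione reductase and thioredoxin reductase spend. It read 9.79, 9.70 and 9.85 in control, 9.86, 9.79 and 9.75 in DHX9-1271, and 9.78, 9.88 and 9.73 in DHX9-837, and the 3 groups overlapped. Differences from control were 0.020 (adjusted p = 0.885) and 0.019 (adjusted p = 0.868), and 0.019 for both hairpins (95% interval -0.0971 to 0.136). Centring each array on its median turned these to -0.0087, -0.0081 and -0.0084. G6pd2 is a near copy of G6pdx with a row of its own, and the split of probes between them is uncertain.

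In the thioredoxin arm, Txnrd1 encodes the cytosolic thioredoxin reductase and Srxn1 encodes sulfiredoxin, which repairs over-oxidised peroxiredoxins. Txnrd1 read 9.91, 9.89 and 9.93 in control, 9.87, 9.74 and 9.79 in DHX9-1271, and 9.89, 9.94 and 9.95 in DHX9-837. All 3 DHX9-1271 arrays lay below control and below DHX9-837. For 10.1% of tested genes the DHX9-1271 arrays likewise lay below control. The DHX9-1271 difference was -0.11 (interval -0.215 to -0.00115, adjusted p = 0.238), that of DHX9-837 was 0.017 (adjusted p = 0.849), and the hairpins differed by 0.12 (interval 0.018 to 0.231, adjusted p = 0.259). Its spread within groups (SD 0.0417) was the second smallest of the 10, and none of these differences was called. Srxn1 read 8.54, 8.68 and 8.73 in control, 8.67, 8.40 and 8.49 in DHX9-1271, and 8.59, 8.60 and 8.60 in DHX9-837. Control spanned the DHX9-837 arrays, and the differences were -0.13 in DHX9-1271 (adjusted p = 0.377) and -0.055 in DHX9-837 (adjusted p = 0.684).

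Nqo1 encodes the quinone reductase that is the usual marker gene of NRF2 activity. It read 9.19, 8.85 and 9.20 in control, 9.07, 8.96 and 9.07 in DHX9-1271, and 9.07, 9.19 and 8.87 in DHX9-837. The lowest and the highest of the 9 arrays were both controls. Nqo1 differed from control by -0.045 in DHX9-1271 (interval -0.294 to 0.204, adjusted p = 0.857) and by -0.035 in DHX9-837 (interval -0.284 to 0.213, adjusted p = 0.865). Both intervals hold differences of either sign, so a change within them was neither shown nor excluded (SD within groups 0.153).

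Hmox1 encodes heme oxygenase 1, which opens the heme ring and is abundant in macrophages that clear red cells. It read 6.09, 6.43 and 6.11 in control, 6.36, 6.34 and 6.31 in DHX9-1271, and 6.34, 6.72 and 6.59 in DHX9-837. Control replicates 1 and 3 were the lowest arrays, and control replicate 2 lay above every DHX9-1271 array. The DHX9-837 difference was 0.34 (SE 0.11, interval 0.0804 to 0.597, adjusted p = 0.0789), the largest of the 10 genes in that comparison, and it was not called. In DHX9-1271 it was 0.13 (adjusted p = 0.57), and in both hairpins together 0.23 (interval 0.00932 to 0.456, adjusted p = 0.156). Single arrays decided these calls. Without control replicate 2, the difference was 0.45 in DHX9-837 (adjusted p = 0.0229) and 0.34 in both hairpins (adjusted p = 0.0459), and without DHX9-837 replicate 1 it was 0.44 in DHX9-837 (adjusted p = 0.0351). The macrophage marker mean was highest in DHX9-837 (7.59 to 7.64, against 7.37 to 7.40 in control), though 1 marker was called lower in that group. The part of macrophages in the Hmox1 values was not tested.

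**Figure D2:**
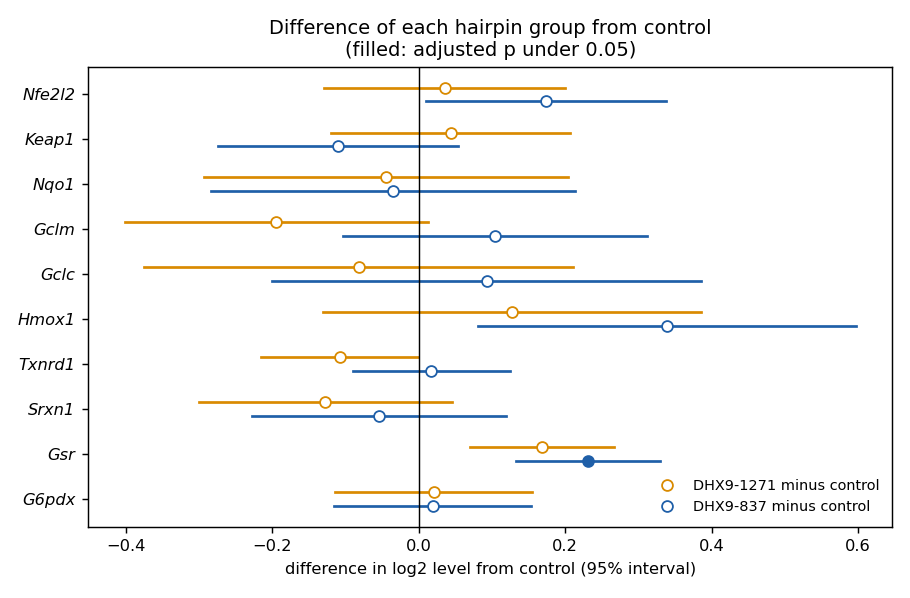
Difference of each hairpin group from control on the log2 scale (horizontal axis) for the 10 genes (vertical axis), with 95% intervals from limma as bars and filled symbols where the adjusted p was under 0.05. Gsr in DHX9-837, at 0.23, is the only filled symbol, and the wide bars of Gclc and Nqo1 cross 0.

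The 10 genes differed in how far replicates of a group lay apart. The pooled within-group SD was 0.183 for Gclc, 0.159 for Hmox1, 0.153 for Nqo1 and 0.124 for Gclm, against a median of 0.0909 over tested genes, and 89.9%, 85%, 83.1% and 72.1% of tested genes varied less. Srxn1, Nfe2l2 and Keap1 lay near the middle (0.0986, 0.0915 and 0.0913), and G6pdx, Txnrd1 and Gsr below it (0.0679, 0.0417 and 0.0317). Single arrays stood low or high for several of the genes at once. Control replicate 2 was the lowest control array for 7 of the 10, namely Nfe2l2, Keap1, Nqo1, Gclm, Gclc, Txnrd1 and G6pdx, and the highest for Hmox1 and Gsr. In DHX9-837, replicate 2 was the highest array for 8 of the 10 (for Srxn1 tied with replicate 3), and replicate 3 the lowest for 5. DHX9-1271 replicate 1 was the highest of its group for 8 of the 10, for Nqo1 tied with replicate 3. These are counts over genes that share an array, so they describe the arrays and are not separate observations.

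**Figure D3:**
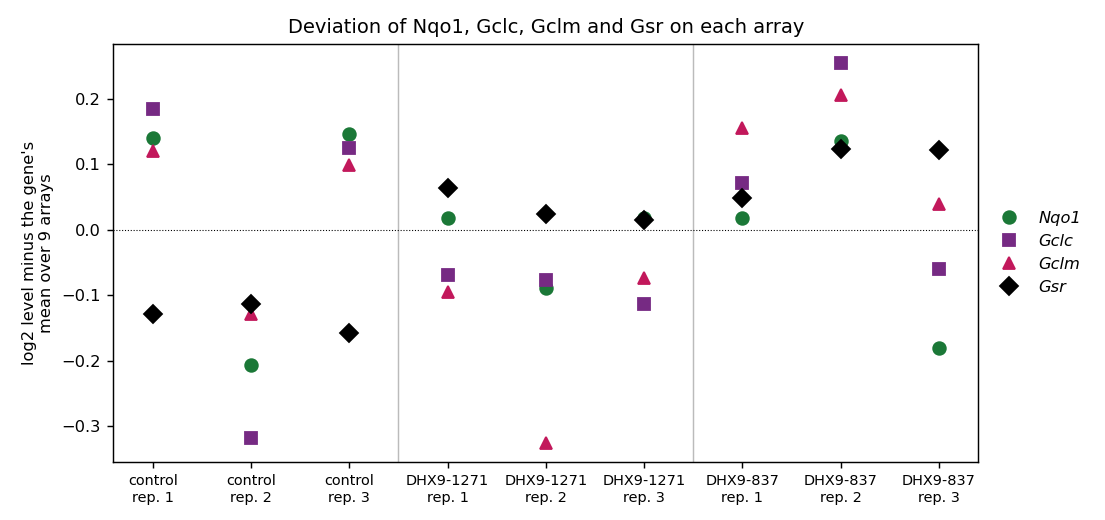
Deviation of Nqo1, Gclc, Gclm and Gsr from their own mean over the 9 arrays (vertical axis, log2) on each array (horizontal axis, by group and replicate). Nqo1, Gclc and Gclm all lie low on control replicate 2, while Gsr separates control from the knockdown arrays and varies little within a group.

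Around the 10 genes, 6 lists of pathway genes held 106 further genes, of which 103 were tested. In both hairpins together 19 of the 103 were called higher and 7 lower, 25.2% of them, where 13.6% of all tested genes were called; their median difference was -0.0033, beside 0.0013 for all genes. In DHX9-837 21 were called higher and 7 lower (27.2%, background 15.8%). In DHX9-1271 4 were called higher (Ephx1, Gpx3, Gstm3 and Slc3a2) and 2 lower (Nnt and Osgin1), 5.83% of them beside a background of 4.47%. Leaving out single arrays lost the DHX9-1271 call of Slc3a2 in 9 of 9 fits, of Osgin1 in 8, of Nnt in 7, of Gstm3 in 3 (each DHX9-1271 array) and of Ephx1 in 1, and that of Gpx3 in none. Between the hairpins 4 were higher in DHX9-837 and 1 lower (4.85%, background 1.91%). The lists were chosen with earlier results of these data known, so these counts are a description. Over the 19 alternatives for both hairpins, the genes called higher numbered 5 to 8 among other NRF2 targets, 2 to 4 in the glutathione list and 1 to 4 in the thioredoxin list, and those called lower 0 to 3, 0 to 2 and 0 to 3. With no level filter the calls of Palb2, Abcc1, Slc6a9, Abcc3, Glo1, Sesn2 and Msra in both hairpins were lost (adjusted p from 0.0515 to 0.0817), with array weights those of Sod3, Abcc1, Slc6a9, Abcc3, Glo1 and Sesn2 (0.0501 to 0.0751), and with centred arrays those of Txn2, Abcc1 and Slc6a9 (0.0623 to 0.103).

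Among 13 partners, competitors and turnover factors of NRF2, 2 were called higher and 0 lower by limma in both hairpins together. The other 11 were not called, so 15.4% were called, near the 13.6% of all tested genes. Bach2, a repressor related to BACH1 that is prominent in B cells, was higher by 0.33 (adjusted p = 0.00859). Its arrays ran from 5.62 to 5.88 in control and from 6.03 to 6.21 in the knockdown groups. They did not overlap, as was so in that direction for 10.8% of tested genes. The B and plasma cell markers given above were also higher, and their part was not tested. Palb2, whose protein partners BRCA2 in DNA repair and can bind KEAP1, was higher by 0.23 (adjusted p = 0.0287). That call was lost without any 1 of 6 arrays (control replicates 1 and 3, the 3 DHX9-1271 arrays and DHX9-837 replicate 2), with adjusted p from 0.0515 to 0.0988.

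Of 25 other textbook NRF2 target genes, 23 were tested (Ftl1 and Aldh3a1 lay under the level filter), and 8 were called higher and 2 lower in both hairpins together, with a median of 0.079. The share called was 43.5%, beside 13.6% of all tested genes, in a list chosen with earlier results of these data known. Ephx1, which encodes the microsomal epoxide hydrolase, read 6.96, 7.13 and 7.18 in control, 7.47, 7.72 and 7.54 in DHX9-1271, and 8.33, 8.32 and 8.33 in DHX9-837. The 3 groups did not overlap, and 10.8% of tested genes had all 6 knockdown arrays above control. Ephx1 rose by 0.49 in DHX9-1271 (adjusted p = 0.0128, and 0.0536 without DHX9-1271 replicate 3) and by 1.24 in DHX9-837 (adjusted p = 5.62e-05). Slc7a11, the cystine carrier that supplies cysteine for glutathione and is also a target of the stress factor ATF4, read 4.98, 5.30 and 5.32 in control, 5.72, 5.92 and 5.69 in DHX9-1271, and 6.79, 7.25 and 6.42 in DHX9-837. It rose by 1.62 in DHX9-837 (adjusted p = 0.000932), and its 0.58 in DHX9-1271 was not called (adjusted p = 0.126). The control mean of 5.20 is under the level filter of 5.29, so Slc7a11 passed that filter only through its higher knockdown arrays. This limits its call against control and its place among the 8 called higher, and the size of its difference is uncertain.

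Txn1, the cytosolic thioredoxin that Txnrd1 reduces, read 9.73, 9.82 and 9.78 in control, and its 6 knockdown arrays ran from 9.98 to 10.14. All 6 lay above control, as was so for 10.8% of tested genes. Txn1 rose by 0.26 in both hairpins together (SE 0.046, adjusted p = 0.00791), where the difference of Txnrd1 was -0.045. Gsta4, a glutathione transferase for lipid aldehydes, differed by -0.11 in DHX9-1271 (adjusted p = 0.366) and rose by 0.66 in DHX9-837 (adjusted p = 0.000399). Its DHX9-837 arrays (8.46 to 8.54) lay above control (7.74 to 7.95), as they did for 17.2% of tested genes. The DHX9-1271 arrays of Gsta4 (7.67 to 7.79) overlapped control. Me1, Osgin1, Abcc3, Gstm3, Abcc1 and Slc6a9 were picked out after their values were seen. Me1, the cytosolic malic enzyme that makes NADPH, rose by 0.99 in DHX9-837 (adjusted p = 0.00306), with arrays from 8.65 to 8.86. In both hairpins together it was higher by 0.64 (adjusted p = 0.012), though its DHX9-1271 arrays (7.98 to 8.11) lay within the control range (7.50 to 8.15). Osgin1, an oxidative stress-induced growth inhibitor gene, was lower by -0.24 (adjusted p = 0.0219), and that call was lost without control replicate 2 or 3 or DHX9-1271 replicate 3 (adjusted p from 0.0525 to 0.0645). The other gene called lower was Abcc3, an export pump for conjugates. Abcc3 fell by 0.33 in DHX9-837 (adjusted p = 0.0113), a call kept in the 20 alternatives run, and differed by -0.086 in DHX9-1271 (adjusted p = 0.504). Its value of -0.21 in both hairpins together (adjusted p = 0.0458) was not called without any 1 of 7 arrays, all but control replicate 2 and DHX9-837 replicate 2 (adjusted p from 0.0804 to 0.139). The remaining 3 called higher in both hairpins together were Gstm3, Abcc1 and Slc6a9. Gstm3 was higher by 0.46 in DHX9-1271 (adjusted p = 0.0199), a call lost without any 1 DHX9-1271 array. Its 0.19 in DHX9-837 was not called (adjusted p = 0.158). In both hairpins together, the Gstm3 call was lost without control replicate 2 (adjusted p = 0.058). That of Abcc1 was lost without any array but control replicate 3 and DHX9-1271 replicate 2 (0.0552 to 0.154). That of Slc6a9 was lost without any array but DHX9-837 replicate 3 (0.0502 to 0.116).

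Of 23 genes of glutathione supply and use, 22 were tested, and 4 were called higher and 2 lower in both hairpins together, with a median of -0.054. The share called was 27.3%, beside 13.6% of all tested genes. Gpx3, a secreted glutathione peroxidase, rose by 0.40 in DHX9-1271 and 0.59 in DHX9-837. Its arrays ran from 8.96 to 9.02 in control, 9.31 to 9.52 in DHX9-1271 and 9.52 to 9.65 in DHX9-837. Slc3a2, the shared heavy chain that carries Slc7a11 to the membrane, rose by 0.53 in DHX9-837 (adjusted p = 0.000205). Its difference of 0.19 in DHX9-1271 was called (adjusted p = 0.0378), but not when any 1 of the 9 arrays was left out (adjusted p from 0.0521 to 0.146) nor when the arrays were median-centred (0.0647). Cbs, the first enzyme from homocysteine towards cysteine, fell by 0.48 in DHX9-837 (adjusted p = 0.00539), a call kept in the 20 alternatives run, and differed by -0.17 in DHX9-1271 (adjusted p = 0.282). In both hairpins together its value was -0.32 (adjusted p = 0.0178), a call lost without control replicate 1 or 3 (adjusted p from 0.0653 to 0.0727). The other gene called lower was Glo1, the glyoxalase that uses glutathione to clear methylglyoxal, at -0.25 (adjusted p = 0.0425), a call lost without any 1 array but DHX9-837 replicates 2 and 3 (adjusted p from 0.0601 to 0.118). Chac1, an enzyme that breaks glutathione down, and Glo1 were picked out after their values were seen. Chac1 was higher by 0.53 (adjusted p = 0.023), a call lost without control replicate 2 or 3 (adjusted p from 0.0724 to 0.0808). Gpx2, the glutathione peroxidase of gut epithelium and a known NRF2 target, lay under the level filter in this table with a mean of 4.14, and was not tested.

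Of 21 thioredoxin, peroxiredoxin, superoxide dismutase and catalase genes, 4 were called higher and 2 lower in both hairpins together, with a median of 0.016. The share called was 28.6%, beside 13.6% of all tested genes. In DHX9-1271 0 of the 21 were called, beside 4.47% of all tested genes. In DHX9-837 4 were called higher and 2 lower (28.6%, background 15.8%). In both hairpins together Txnl1, a thioredoxin-like protein of the proteasome, was higher by 0.27 (adjusted p = 0.00533). Its control arrays ran from 8.63 to 8.74 and its knockdown arrays from 8.86 to 9.11. Txndc5, a protein disulfide isomerase of the endoplasmic reticulum, was higher by 0.25 (adjusted p = 0.0145; 0.0586 without control replicate 1). Txn2, the mitochondrial thioredoxin, was higher by 0.15 (adjusted p = 0.0234), and this was lost without any 1 control array or DHX9-1271 replicate 2 or 3 (adjusted p from 0.0523 to 0.0617). Sod3, the secreted superoxide dismutase, was higher by 0.39 (adjusted p = 0.0278), and this was lost without any 1 of 6 arrays (control replicates 1 and 3, DHX9-1271 replicate 3 and the 3 DHX9-837 arrays; adjusted p from 0.050 to 0.106). The 2 called lower in both hairpins together were picked out after their values were seen. They were Sesn2, a stress-induced sestrin, at -0.45 (adjusted p = 0.0489) and Msra, a methionine sulfoxide reductase, at -0.18 (adjusted p = 0.029). The Sesn2 control arrays read 8.11, 7.44 and 7.99, and its call was lost without any 1 array but control replicate 2 (adjusted p from 0.0792 to 0.17). That of Msra was lost without any 1 of 6 arrays, control replicates 1 and 3 and replicates 2 and 3 of each hairpin (adjusted p from 0.0549 to 0.0984). Txnip, the inhibitor of thioredoxin, differed by -0.031 (interval -0.164 to 0.101, adjusted p = 0.761).

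Of 12 other NADPH-supplying genes, 1 was called higher and 1 lower in both hairpins together (16.7%, near the 13.6% of all tested genes). Nnt, the mitochondrial transhydrogenase that makes NADPH from NADH, read 8.72, 8.73 and 8.75 in control, 8.09, 8.51 and 8.24 in DHX9-1271, and 8.31, 8.39 and 8.42 in DHX9-837. Nnt fell by 0.41 in both hairpins together (adjusted p = 0.0119), a call kept in the 19 alternatives run. The separate calls, -0.45 in DHX9-1271 (adjusted p = 0.0323) and -0.36 in DHX9-837 (adjusted p = 0.0314), were each lost with no level filter and without any 1 of 7 arrays (adjusted p up to 0.121 and 0.0941). The arrays without which they held were DHX9-1271 replicate 2 and DHX9-837 replicate 3 for the former, and DHX9-1271 replicates 1 and 2 for the latter. As background, Nnt carries a deletion in the C57BL/6J substrain, and the labels give C57BL/6 with no substrain. Mthfd1, a folate enzyme that makes NADPH, was higher by 0.25 (adjusted p = 0.0226), a call lost without control replicate 1 or 3 or DHX9-1271 replicate 3 (adjusted p from 0.056 to 0.087). Of 12 genes of heme and iron handling, 0 were called by limma in both hairpins together, with a median of -0.032, and 2 of 12 had an unadjusted p under 0.05, beside 29.1% of all tested genes.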

How the data were processed

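The authors deposited log2 expression levels. The submitters' processing notes name RMA, the package oligo (version 1.30.0) and R (version 3.1.1). RMA usually gives every array the same distribution of values, which would hide a shift of most transcripts one way, and its summary can leave ties: 45.2% of tested genes had the same value on at least 2 arrays. For the genome build and the probe set definition, the sources used here give no name.

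The table held 24973 rows. The platform's probe table named 24015 of these, 559 more (G6pdx among them) were named through a RefSeq gene number equal to the row's Entrez number, and 399 had no name here. Keeping the brightest row of each symbol removed 4. The level filter, at the 30th percentile of the mean over arrays (5.29 on the log2 scale), left 17199 genes to test.

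limma 3.58.1 in R 4.3.3 fitted group means over all 9 arrays with empirical Bayes moderation (6 residual and 2.82 prior degrees of freedom), two-sided, adjusted by Benjamini and Hochberg over all genes tested. For both hairpins against control, the control mean was subtracted from the average of the DHX9-1271 and DHX9-837 means. The method was run on simulated data with independent errors and no array effects. The differences put in were larger than that of Gsr, so differences as small as that one were not simulated. Each of the 10 genes was tested besides by permuting the arrays exactly, two-sided.

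The 10 genes, the pathway lists and the marker lists were chosen with earlier results of these data known. Besides the 10 genes, the rule named up to 4 called genes of smallest p per list in both hairpins against control, with Slc7a11, Gpx2 and Txnip whatever their result. Not every gene under this rule is reported here. Alternatives changed the level filter, the rows kept per gene, the scaling (median centring, cyclic loess), the moderation (trend and robust), the weights of arrays and the samples fitted (the groups compared alone, each array left out), or added the replicate number as a block. Leaving out rows named through RefSeq, and leaving out tied genes, were chosen after seeing the data. Figures used matplotlib 3.10.9 in Python 3.11.15.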

Additional observations from a re-analysis of the deposited data

Results flagged for a closer look

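For 5 genes of the pathway lists and 2 epithelial markers the hairpins differed from each other by limma's test of the difference, given here as DHX9-837 minus DHX9-1271 on the log2 scale. Gsta4 differed by 0.76 (adjusted p = 0.00198) and Ephx1 by 0.75 (adjusted p = 0.00464). For both genes the hairpin groups did not overlap, as was so in that direction for 9.41% of tested genes. Slc3a2 differed by 0.34 (adjusted p = 0.00992; 0.0536 without DHX9-1271 replicate 3). Slc7a11 differed by 1.04 (adjusted p = 0.0328), and this was lost with no level filter (adjusted p = 0.0633), with the arrays compared alone (0.068) and without any 1 of 6 arrays (each DHX9-1271 array, DHX9-837 replicates 1 and 2, and control replicate 3). Cat, the catalase gene, differed by -0.46 (adjusted p = 0.0342): it read 10.71, 10.53 and 10.60 in control, 10.68, 10.84 and 10.77 in DHX9-1271, and 10.31, 10.46 and 10.16 in DHX9-837, and the difference was lost without control replicate 3, any 1 DHX9-1271 array, or DHX9-837 replicate 1 or 3 (adjusted p from 0.0598 to 0.14), and also with no level filter (0.0677), with the arrays compared alone (0.0641) and with the replicate block (0.0675). Of the epithelial markers, Krt18 differed by 0.34 (adjusted p = 0.0306; lost without any 1 of the 6 hairpin arrays, with no level filter and with the replicate block) and Slc26a3 by -0.36 (adjusted p = 0.0189; lost without replicate 1 or 3 of either hairpin and with the replicate block). None of the 10 redox genes showed a called difference between the hairpins.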

How the results depend on the processing

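Gsr kept its call and direction in all 19 alternatives for both hairpins and all 20 for DHX9-837. In DHX9-1271, where 0 of the 10 genes were called, 1 (Gsr) was called with the level filter at the median gene (adjusted p = 0.0389) and with trend and robust moderation (0.0273). Leaving out single arrays moved the count called between 1 and 2 of 10, in DHX9-837 and in both hairpins alike. With the replicate block 1 of 10 stayed called in both (Gsr, adjusted p = 0.028), the exact p of Gclm minus Gclc was 0.704, and all-gene calls in DHX9-1271 dropped to 271 higher and 147 lower. After each gene's group mean was subtracted, the deviations of same-numbered arrays correlated at -0.377 to 0.268, so numbers were not taken as pairs. Signs turned for values near 0: centred arrays gave G6pdx -0.0087, -0.0081, -0.0084 and 0.00062 (DHX9-1271, DHX9-837, both, between hairpins), Txnrd1 -0.0099 in DHX9-837 and Gclc -0.023 in both; cyclic loess gave G6pdx -0.0086 in DHX9-1271 and 0.023 between hairpins, and Gclc -0.011 in both; array weights gave Nqo1 0.0017 in DHX9-837 and G6pdx 0.022 between hairpins. Leaving out single arrays gave ranges across 0: Gclm minus Gclc -0.0989 to 0.0278; Gclc -0.239 to 0.0115 in DHX9-1271, -0.0646 to 0.186 in DHX9-837 and -0.152 to 0.0989 in both; Nqo1 -0.161 to 0.0149, -0.152 to 0.0502, -0.157 to 0.0196 and, between hairpins, -0.063 to 0.095; G6pdx -0.019 to 0.0553, -0.0204 to 0.054, -0.0197 to 0.0546 and -0.0399 to 0.0304. Likewise Keap1 ran from -0.0112 to 0.102 in DHX9-1271 and -0.088 to 0.0251 in both, Gclm from -0.124 to 9.14e-05 in both, Dhx9 from -0.0421 to 0.00214 between hairpins, and Txnip from -0.0993 to 0.0397 in DHX9-837, -0.0662 to 0.0033 in both and -0.0663 to 0.0728 between hairpins, and Slc6a9 from -0.00399 to 0.103 between hairpins. All-gene calls moved most in DHX9-1271 (higher: 493, but 259 with no level filter, 212 with the arrays compared alone, 742 with trend and robust moderation, 89 without DHX9-1271 replicate 3) and between hairpins (lower: 208, but 463 with array weights, 372 with trend and robust moderation, 91 with no level filter, 23 at the lowest without 1 array); DHX9-837 had 1512 higher, but 974 with the arrays compared alone, and both hairpins 1410, but 814 without control replicate 1. The causes were not tested. The arrays compared alone gave no separate fit for both hairpins, which use all arrays.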
